A study of Mus musculus with 32 samples.

Results

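The 34 genes described here are p53 target genes and close partners of p53, followed gene by gene in whole kidneys of C57bl/6 mice through 5 days of cisplatin injury. They were taken by name from the deposited table of 54532 genes, and each of the 34 names matched 1 row. The list was drawn up with results of these libraries known. Of the 34, 21 belong to the time modules that the study built from genes changed in both sexes at Day 2 and Day 3, and 13 do not. Much of the list was therefore chosen by the measured changes from Day 0 to Day 2 and Day 3. For the 34 genes these changes are given below as a description with no test, and tests are kept to the other comparisons.

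p53, encoded by Trp53 in the mouse, is a transcription factor that is held low in unstressed cells because the ubiquitin ligase Mdm2 marks it for degradation. DNA damage, such as the platinum adducts left by cisplatin, leads to its stabilisation by changes in the protein, after which it binds response elements in DNA and raises transcription of its targets. The targets act in cell cycle arrest, DNA repair, apoptosis and metabolism, and some of them, Mdm2 among them, shut the response down again. In the kidney, cisplatin is taken up by the proximal tubule, where p53 is known to take part in tubular cell death.

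All animals were wild-type C57bl/6 mice, 6 to 8 weeks old, with 4 males and 4 females at each of Day 0, Day 2, Day 3 and Day 5 after 1 intraperitoneal injection of 20 mg/kg cisplatin, which makes 32 libraries of total kidney RNA, 1 per mouse. The sample labels give cisplatin as the treatment of the Day 0 females and no treatment for the Day 0 males. The study treats Day 0 as healthy, and both Day 0 groups were taken as controls. Because whole kidney was sequenced, fewer cells of a type and less RNA per cell cannot be told apart.

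The libraries hold between 16502107 and 35961325 counted reads (median 23677202.5). Levels are given as CPM, the reads of a gene scaled to 1 common library size after TMM scaling, a correction for differences in library composition. All 10 kidney marker genes were found in every group. Their summed level at Day 5 lay wholly below Day 0, with 3187 to 9644 CPM beside 19860 to 88710 in males and 5747 to 10370 beside 12440 to 45860 in females. Genes of the mitochondrial genome took 4.49 to 24% of the reads at Day 0 and 4.87 to 14% at Day 2 and Day 3. At Day 5 they took 42.5, 78.9, 79.8 and 79.7% in the 4 males and 31.6, 77.9, 22.2 and 9.3% in the 4 females. The library labelled male Day 5 mouse 1 held 4153 reads of Xist, which is transcribed in females, beside 387 Y-linked reads, so male Day 5 results are also given without it. Xist reached 242 reads in male Day 0 mouse 4 and 260 in male Day 5 mouse 2. The 4 Day 0 females held 221, 5, 44 and 66 Y-linked reads, while every later female held 0.

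Some libraries stood apart from their group in these genes. Female Day 3 mouse 2 had the lowest level of the 4 mice in 32 of the 34 genes, whereas it was lowest in 34.2% of all 18220 expressed genes. Male Day 2 mouse 1 was lowest in 24 of the 34 (22.7% of all genes) and male Day 2 mouse 4 highest in 27 (39.2%). Male Day 3 mouse 1 was highest in 27 (31.3%), and male Day 5 mouse 4 was lowest in 23 (27.1%). In these groups 1 mouse thus held the same position in most of the 34 genes.

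**Figure D1:**
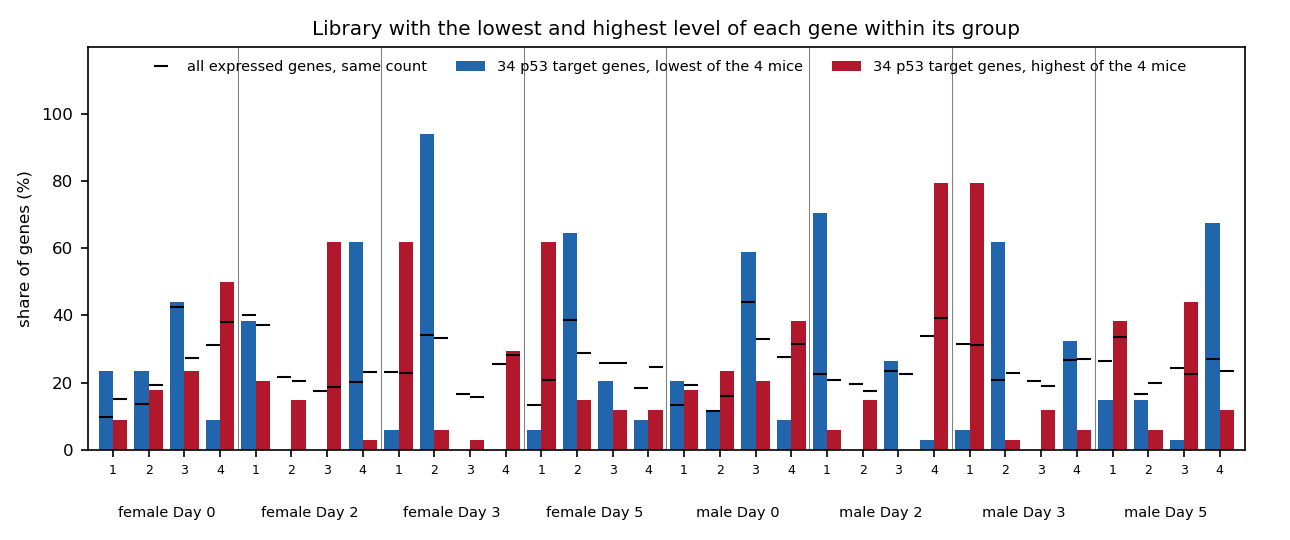
Share of genes (y axis, %) in which each library (x axis, mouse number within its group) held the lowest (blue bars) or highest (red bars) level of its 4 mice, for the 34 p53 target genes, with the same share over all 18220 expressed genes as black marks. Female Day 3 mouse 2 is lowest in 32 of the 34 genes, and male Day 2 mouse 4 and male Day 3 mouse 1 are highest in 27 each.

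p53 acts on its direct targets through response elements, which may lie near the start of a gene, in introns or farther away. The RefSeq promoters (GRCm38.p6, 250 bases before to 50 bases after the start) were searched for such an element, that is, for 2 adjoining copies of its 10-base site with no base between them. The element is its own reverse complement, so that 1 strand covers both. A promoter was found for 29 of the 34 genes, of which 7 have 2 promoters each, and none was found for Zmat3, Trp53inp1, Tnfrsf10b, Perp and Rrm2b. An element with at most 2 mismatches lay in 4 of the 29 genes, against 0.94% of all 27025 genes with a promoter. With up to 4 mismatches the search found it in 13 of the 29, against 33.2% of all genes. The shorter pattern of 2 CATG cores with 6 bases between them lay in 1 of the 29, Cdkn1a, against 0.833% of all genes, and there it overlaps the element.

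The 4 elements are printed 5′ to 3′ on the strand of the gene, with the 20 bases of the element in capitals, to show the sequence that stands at the start of 4 of the members.
Cdkn1a (chr17:29090923-29090952, plus strand): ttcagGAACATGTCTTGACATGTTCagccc
Ccng1 (chr11:40755457-40755486, minus strand): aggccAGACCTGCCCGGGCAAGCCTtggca
Gtse1 (chr15:85859940-85859969, plus strand): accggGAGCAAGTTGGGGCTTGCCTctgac
Ckap2 (chr8:22185998-22186027, minus strand): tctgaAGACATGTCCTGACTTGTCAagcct
The elements of Cdkn1a, Ccng1 and Gtse1 differ from the consensus at 1 base each and that of Ckap2 at 2. They begin 51 bases before the start in Cdkn1a, 195 in Ccng1, 203 in Ckap2 and 1 in Gtse1. A match describes letters in this window only. Elements that lie in introns or farther from the start were outside the search.

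At Day 2 and Day 3 most of the 34 genes stood above their Day 0 level. In females at Day 2, all 4 mice exceeded all 4 Day 0 mice in 22 of the 34 genes (8.52% of all expressed genes did so), and at Day 3 in 15 (10.1%). In males the count was 19 at Day 2 (12.1%) and 22 at Day 3 (19.8%). With female Day 3 mouse 2 left out, the female Day 3 count was 29 (15.8% of all genes). The 34 genes were partly chosen for this rise, and nothing is read from these counts. Sums of erythroid markers lay wholly below Day 0 on the same days. Their sum went from 411 to 2653 CPM in Day 0 females to 7.0 to 44.9 at Day 2 and 3.13 to 78.0 at Day 3, and in males from 434 to 2150 CPM to 7.51 to 163.5 and 0.811 to 2.25. All 5 fell in females at both days and in males at Day 3, and none passed in males at Day 2, where 5 had an unadjusted p under 0.05 and DESeq2 called 4. The kidney marker sum was 7294 to 13260 and 6790 to 15190 CPM in females at Day 2 and Day 3 and 11680 to 22940 and 14970 to 23660 CPM in males, which overlapped Day 0 in each case. Leukocyte sums lay wholly below Day 0 in females at Day 2 (62.16 to 86.06 beside 87.17 to 114.7 CPM) and in males at Day 3 (70.76 to 85.98 beside 97.77 to 158.8). Adipocyte sums did so in males at Day 3 (173.9 to 232.1 beside 301.9 to 1711 CPM). Elsewhere both overlapped Day 0. The part of these marker sets in the changes of the 34 genes was not tested. In every one of the 4 comparisons 1 gene lay wholly below Day 0, and it was the same one, D630023F18Rik (10.9 and 15.8% of all genes lay wholly below at Day 2 and Day 3 in males, 6.43 and 8.8% in females). By group mean, 23 of the 34 genes were highest at Day 2 in females and 14 in males, while 5 in females and 11 in males were highest at Day 5. The same count was not made over all genes, and nothing is read from it.

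**Figure D2:**
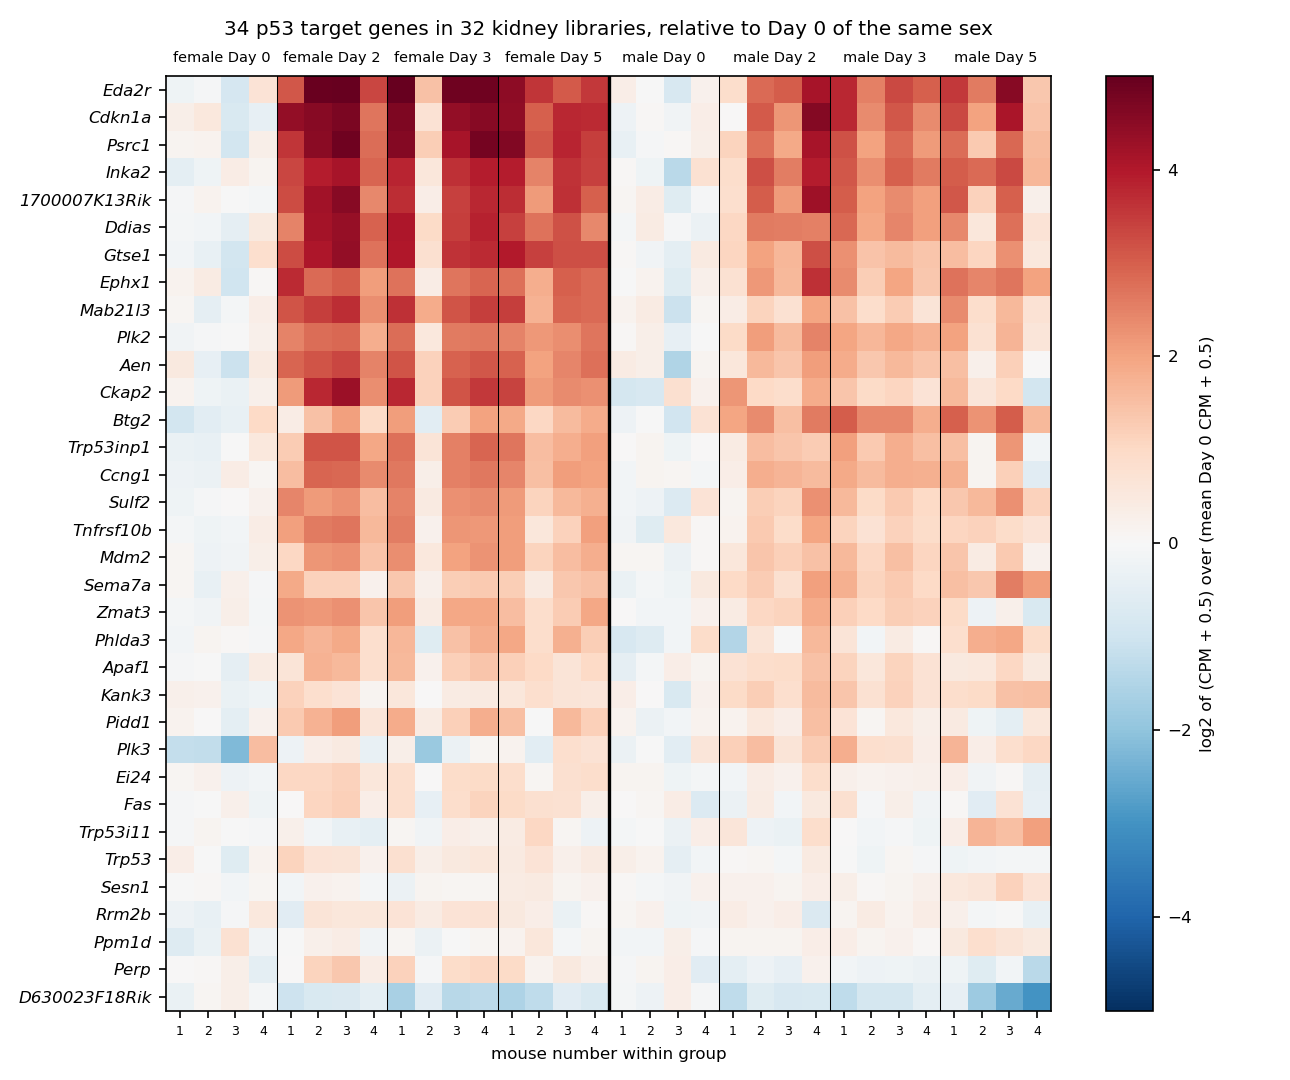
Heat map of the 34 genes (rows, ordered by mean rise) in the 32 libraries (columns, mouse number within group), as log2 of CPM plus 0.5 over the mean Day 0 CPM of the same sex plus 0.5, with the colour scale ending at 5 in both directions. Female Day 3 mouse 2 and male Day 2 mouse 1 are pale beside the other mice of their groups, the lowest row is D630023F18Rik, and male Day 5 differs from mouse to mouse.

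At Day 5 members stood above Day 0 in both sexes. The comparison of Day 5 with Day 0 was not among those behind the modules, but its results were known when the list was drawn up. In edgeR's quasi-likelihood test, adjusted over all genes by the Benjamini-Hochberg method, 16 of the 34 genes were higher at Day 5 than at Day 0 in females and none was lower. Over all 16260 genes tested in females only 30 were higher (0.185%) and 12 lower (0.0738%). In males 19 of 32 tested genes were higher and none was lower, against 8.98% of all genes higher and 10.2% lower. The counts moved with single mice. In females they were 4 without Day 0 mouse 1 or Day 5 mouse 1, 3 or 4 (0.0483 to 0.0901% of all genes called in either direction), 6 without Day 0 mouse 2 (0.182%), 14 without Day 5 mouse 2 (0.26%) and 17 without Day 0 mouse 3 (0.298%). Without Day 0 mouse 4, 23 members were higher and D630023F18Rik was lower, and 12.6% of all genes were called in either direction. In males they were 9 and 10 without Day 0 mouse 1 or 2 (6.77 and 6.4%), 10 without Day 5 mouse 2 (5.38%) and 8 without Day 5 mouse 3 (5.9%). They were 18 and 16 without Day 0 mouse 3 or 4 (19.9 and 21.7%) and 15 without Day 5 mouse 4 (6.79%). Cdkn1a, Plk2, Inka2 and 1700007K13Rik passed in all 8 of these fits in females, and Cdkn1a, Btg2, Psrc1, Ephx1, Sulf2, Sema7a and Kank3 in all 8 in males, whereas Mdm2, Plk3, Tnfrsf10b and Mab21l3 passed in 1 of the 8 in males. Of the other female calls, Ephx1 and Mab21l3 passed in 4 of the 8, Mdm2, Ccng1, Zmat3, Aen, Trp53inp1, Psrc1 and Sulf2 in 3, and Eda2r, Phlda3 and Ddias in 2. Of the other male calls, Eda2r and Trp53i11 passed in 7, Plk2 in 6, Gtse1 and Inka2 in 4, Sesn1 in 3, and Phlda3 and Ppm1d in 2. The median log2 fold change of the genes tested was 1.68 in females and 1.22 in males, beside 0.03 and 0.04 over all genes. DESeq2 called 23 higher and 1 lower in females, where it called 1.57% of all genes higher and 2.37% lower. In males it called 22 higher and 1 lower, against 10.9 and 11.1% of all genes, and the lower member was D630023F18Rik in both sexes. The Day 0 mice also entered the comparisons that chose the list, and the Day 5 test shares them. Adrenal cortex markers, from a gland beside the kidney, were higher at Day 5, where 5 genes summed to 509 to 1365 CPM in females beside 3.02 to 324 at Day 0. In males they summed to 31.6 to 160.5 CPM beside 0.73 to 17.6. The part of these genes and of the lower kidney marker level in the Day 5 results was not tested.

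By name, 10 genes passed at Day 5 in both sexes, namely Cdkn1a, Mdm2, Plk2, Psrc1, Inka2, Eda2r, Phlda3, Ephx1, Sulf2 and Mab21l3. In females 6 more passed (Ccng1, Zmat3, Aen, Trp53inp1, Ddias and 1700007K13Rik), and in males 9 more (Btg2, Gtse1, Plk3, Sesn1, Ppm1d, Tnfrsf10b, Trp53i11, Sema7a and Kank3). Passing in 1 sex is no evidence of a sex difference. The direct test of males against females at Day 5 called none of the 34 (0.217% of all genes higher in males and 0.0591% lower). Of the 34, 10 had an unadjusted p under 0.05 (20.3% of all genes) and DESeq2 called 2 (4.01% of all genes higher and 1.94% lower). Without male Day 5 mouse 1, Trp53i11 was higher in males and Aen, D630023F18Rik, Plk2 and Zmat3 were lower (17% of all genes in either direction). Adrenal cortex markers at Day 5 were lower in males in 4 of 5 genes, with the sums given above. Sums in Day 5 males and females were 82.2 to 364 and 62.1 to 128 CPM for leukocyte markers, of which Ptprc passed as higher in males. They were 603 to 3212 and 316 to 1176 CPM for adipocyte markers and 204 to 5501 and 14.4 to 1451 CPM for erythroid markers, none of which passed. The part of these genes in this comparison was not tested. Ddias and 1700007K13Rik were too low in males to be tested there. Against Day 0 and without that library, whose Xist reads go against its label, 15 genes were higher in males and D630023F18Rik was lower (26% of all genes called in either direction), and Mdm2, Mab21l3, Plk3 and Tnfrsf10b no longer passed, so that 8 of the 10 shared genes were left. Without female Day 5 mouse 2, the female library with 77.9% mitochondrial reads, 14 genes were higher in females (0.26% of all genes called in either direction). With the genes of the mitochondrial genome left out of every library the counts were 16 and 19 (0.275 and 18.3% of all genes called in either direction), with Tnfrsf10b no longer called in males and Ddias called.

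**Figure D3:**
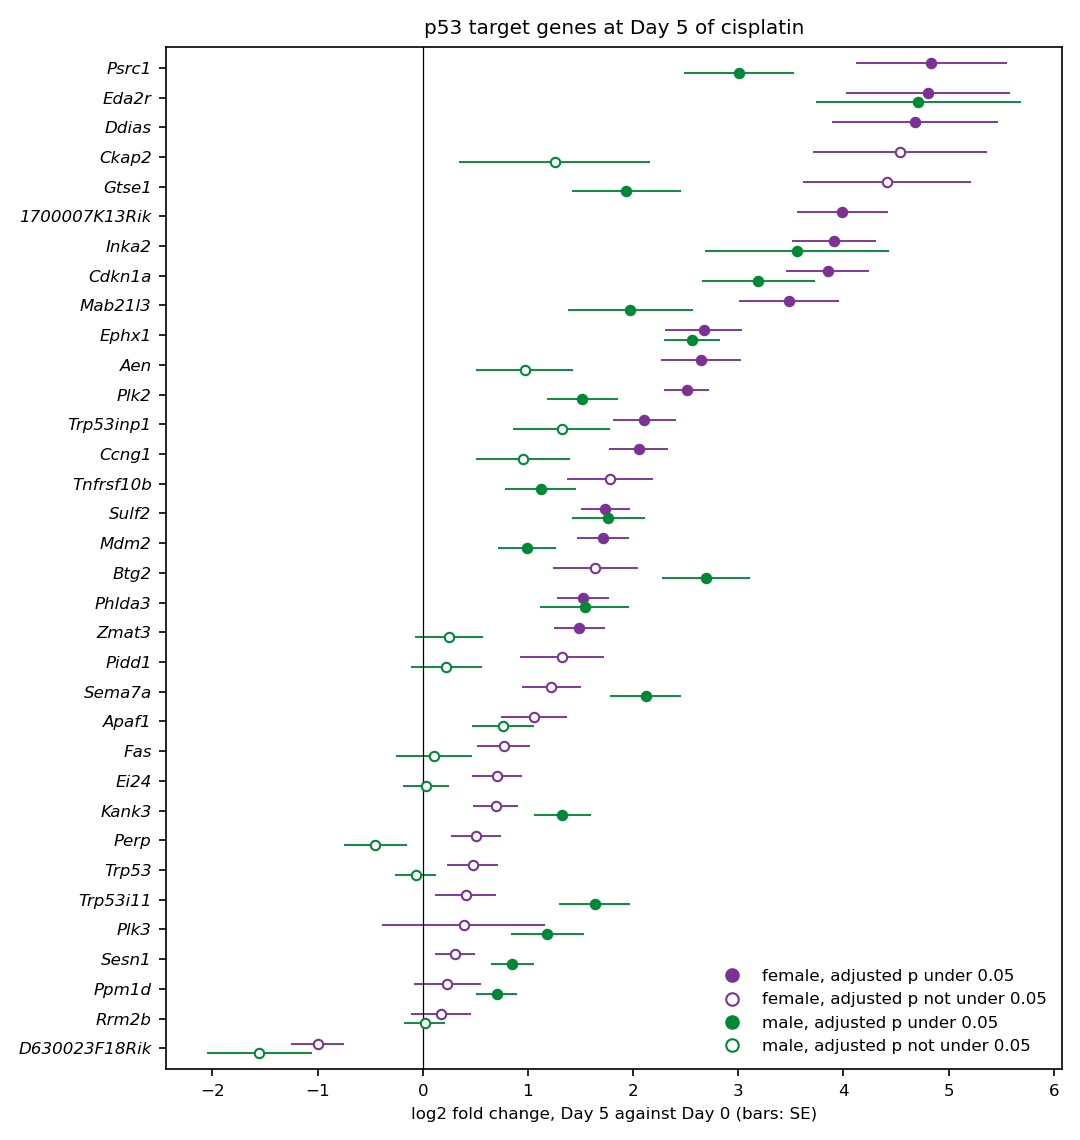
Log2 fold change of each of the 34 genes (rows) at Day 5 against Day 0 (x axis), with its standard error as a bar, for females (purple) and males (green); filled points have an adjusted p under 0.05. Of the points, 16 female and 19 male ones are filled, all of them to the right of 0, and D630023F18Rik lies to the left in both sexes. Ddias and 1700007K13Rik have no male point.

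The feedback arm of the pathway includes Mdm2 and Ccng1. Mdm2 (chr10:117688875-117710758, GRCm38) measured 25.8, 19.7, 20.9 and 29.2 CPM in the 4 Day 0 females (mice 1 to 4, the order used throughout) and 50.1, 113, 119 and 64.9 CPM at Day 2. At Day 3 the females measured 121, 35, 97.4 and 116 CPM and at Day 5 105, 52.3, 71 and 86.3 CPM. Every treated female was above every Day 0 female, mouse 2 of Day 3 by the least. In males Mdm2 went from 31.8, 32.3, 24.6 and 31.5 CPM at Day 0 to 44.7, 79.1, 68.4 and 84.8 at Day 2, 94.1, 62.2, 85.6 and 64.6 at Day 3 and 79.3, 39.7, 74.1 and 35.4 at Day 5. Again no treated mouse overlapped Day 0, and Day 5 mouse 4 stood nearest to the highest control. At Day 5 the log2 fold change against Day 0 was 1.71 ± 0.25 (SE) in females (adjusted p = 0.0207) and 0.99 ± 0.28 in males (adjusted p = 0.0357), each from 4 mice a group. The male call was lost without Day 5 mouse 1, whose Xist reads go against its label, and held in 1 of the 8 fits that left out 1 mouse. The female call held in 3 of 8 such fits.

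Ccng1, which encodes cyclin G1 and brings a phosphatase to Mdm2, was the member with the highest level per gene length at Day 0 in both sexes, at a median of 33.5 FPKM in females and 47.4 FPKM in males. In CPM, Ccng1 (chr11:40748552-40755311) measured 104, 102, 161 and 135 in Day 0 females, 361, 937, 914 and 638 at Day 2, 778, 153, 718 and 774 at Day 3 and 674, 353, 540.0 and 513 at Day 5. Of the treated females, mouse 2 of Day 3 alone fell inside the Day 0 range. Ccng1 in males was 151, 185, 179 and 158 CPM at Day 0, 211, 598, 545 and 498 at Day 2 and 633, 509, 589 and 582 at Day 3, with the 4 Day 3 males close together. The Day 5 males measured 573, 184, 387 and 114 CPM, so that mouse 4 was below all Day 0 males and mouse 2 within them. Ccng1 rose at Day 5 in females (log2 fold change 2.05 ± 0.28, adjusted p = 0.0168) and did not pass in males (0.96 ± 0.45, adjusted p = 0.153).

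Trp53 itself and the phosphatase gene Ppm1d (Wip1, which dephosphorylates p53 and its kinases) belong to the same circuit. Trp53 ranged over 12.1 to 23.7 CPM in Day 0 females, 21.9 to 41.2 at Day 2, 23 to 32.8 at Day 3 and 22.7 to 30.4 at Day 5. In males the ranges were 17.5 to 29.95, 22.7 to 33.1, 20.7 to 25.7 and 20.9 to 22.6 CPM. The transcript passed no test, and its Day 5 log2 fold change was 0.48 ± 0.24 in females (adjusted p = 0.367) and -0.07 ± 0.19 in males (adjusted p = 0.83). Ppm1d was 12.5, 12.4, 17.3 and 13.1 CPM in Day 0 males, 15.1 to 17.4 at Day 2, 14.6 to 17.6 at Day 3 and 19.7, 25.4, 21.9 and 19.7 at Day 5. Its males were thus highest at Day 5, where it rose against both Day 0 (log2 fold change 0.70 ± 0.20, adjusted p = 0.0349) and Day 3 (0.53 ± 0.13, adjusted p = 0.0124). The first call held in 2 of the 8 fits that left out 1 mouse and was lost with no filter on low counts and with a replicate block, and the second held in all 8 but was lost with no filter and in 1 fit over all 8 groups. In females Ppm1d overlapped Day 0 at every day, with 11, 13.7, 29.98 and 15.5 CPM at Day 0 and 20.1, 26.3, 16.3 and 19.4 at Day 5 (0.23 ± 0.32, adjusted p = 0.735).

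Cell cycle arrest was represented first by Cdkn1a (chr17:29090976-29100727), which encodes the cyclin-dependent kinase inhibitor p21 and carries the element printed above. Cdkn1a measured 16.1, 19.2, 7.54 and 9.93 CPM in the Day 0 females and 288, 316, 358 and 87.9 CPM at Day 2, where the log2 fold change was 4.32 ± 0.49, or 19.9-fold. The Day 3 females measured 347, 22, 288 and 322 CPM and the Day 5 females 292, 107, 185 and 182 CPM. Mouse 2 of Day 3 stood just above the highest control, while the other 3 were at least 288 CPM. In males Cdkn1a was 8.3, 10.6, 8.83 and 12.8 CPM at Day 0, 10.4, 88.9, 48.7 and 257 at Day 2, 145, 54.7, 90.3 and 54.9 at Day 3 and 104, 42.5, 178 and 28.4 at Day 5. Male Day 2 mouse 1 lay within the controls, whereas mouse 4 reached 257 CPM, 24.8 times as high. Cdkn1a rose at Day 5 in females (log2 fold change 3.85 ± 0.39, adjusted p = 0.00427) and in males (3.19 ± 0.54, adjusted p = 0.0092), and this held with each mouse left out in turn.

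Plk2 and Plk3 encode polo-like kinases of the stress response. Plk2 measured 5.55, 6.08, 6.37 and 7.66 CPM in Day 0 females, 38.1, 46.9, 49.6 and 23.9 at Day 2, 47.3, 9.51, 40.8 and 42.9 at Day 3 and 37.7, 30.7, 33.8 and 44 at Day 5. The males measured 8.52, 10.1, 6.09 and 8.11 CPM at Day 0, 16.2, 36.4, 25.8 and 47.8 at Day 2, 33.4, 27.1, 33.1 and 28.5 at Day 3 and 34.8, 14.3, 27.9 and 12.9 at Day 5. No treated mouse of either sex overlapped its Day 0 group, and Plk2 had the smallest adjusted p of the 34 at Day 5 in females (0.00193, log2 fold change 2.51 ± 0.21). In males it rose as well (1.52 ± 0.34, adjusted p = 0.0175). Plk3 rose at Day 5 in males (1.18 ± 0.35, adjusted p = 0.0413). Its call was lost in 7 of the 8 fits that left out 1 mouse, that without male Day 5 mouse 1 among them. In females 1 control, mouse 4, measured 67.9 CPM, above every treated female, while the other 3 controls were below 10 CPM.

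Btg2, an antiproliferative gene of early stress responses, had the same high control. It measured 19.95, 26.4, 29.3 and 76.3 CPM in Day 0 females, 49.1, 106, 159 and 74.2 at Day 2, 163, 26.1, 93.1 and 156 at Day 3 and 145, 77.7, 116 and 139 at Day 5, and the Day 2 and Day 3 groups overlapped Day 0. In males Btg2 was 14, 16.5, 8.32 and 28 CPM at Day 0, 67.6, 89.2, 48 and 103 at Day 2, 141, 90.8, 89.9 and 60.7 at Day 3 and 137, 82.1, 139.7 and 52.4 at Day 5, with no overlap at any day. It rose at Day 5 in males (log2 fold change 2.69 ± 0.42, adjusted p = 0.00748), and with each mouse left out in turn, but did not pass in females (1.64 ± 0.41, adjusted p = 0.137).

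**Figure D4:**
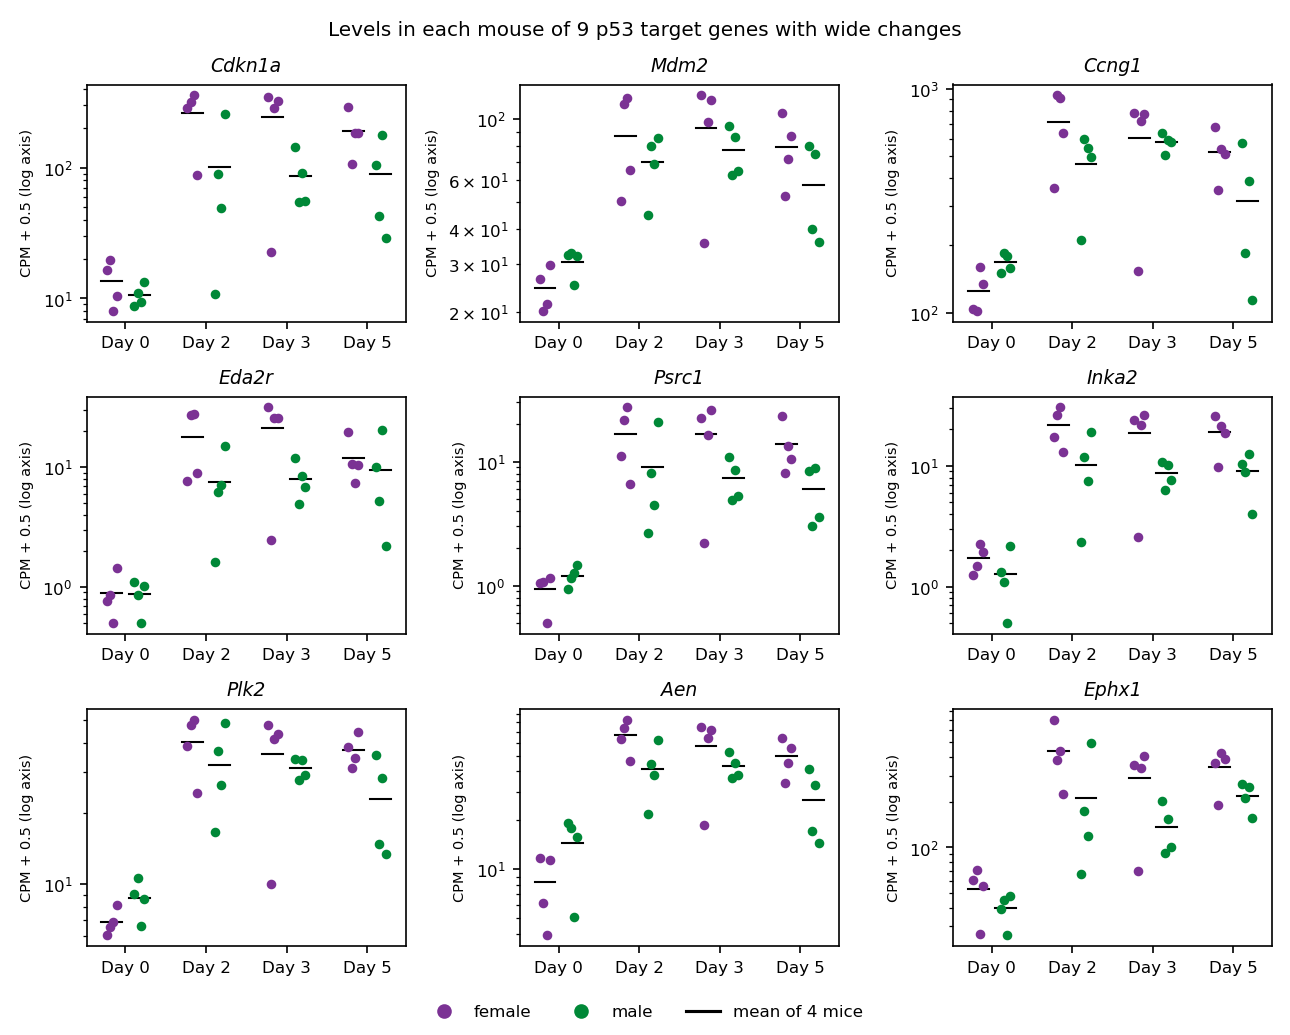
Levels of 9 of the genes in each mouse (points, CPM plus 0.5 on a log axis) by day, females in purple and males in green, with the mean of 4 mice as a black bar. The low female point at Day 3 is mouse 2 in each panel, and in Cdkn1a it measured 22 CPM beside 288 to 347 CPM in the other 3.

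Several members encode proteins of microtubules and the mitotic spindle, and their Day 0 level was close to 0. Psrc1, a spindle and microtubule protein, measured 0.552, 0.577, 0 and 0.647 CPM in Day 0 females (0 to 24 reads), 10.6, 21.3, 26.8 and 6.1 at Day 2, 21.9, 1.7, 15.9 and 25.3 at Day 3 and 22.9, 7.58, 12.8 and 9.91 at Day 5. The males measured 0.434, 0.65, 0.766 and 0.978 CPM at Day 0 (8 to 21 reads), 2.14, 7.61, 3.98 and 20.5 at Day 2, 10.4, 4.4, 8.01 and 4.82 at Day 3 and 7.94, 2.53, 8.38 and 3.09 at Day 5. All 24 treated mice were above their Day 0 group. Psrc1 rose at Day 5 with the largest log2 fold change of the 34 in females (4.83 ± 0.72, adjusted p = 0.0245), and in males by 3.01 ± 0.52 (adjusted p = 0.00984). With at most 24 reads in a control, the fold depends on how the model treats low counts.

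Gtse1, a microtubule protein that also carries p53 out of the nucleus, ranged over 0 to 1.21 CPM in Day 0 females and 5.81 to 19.5 at Day 2, and in males over 0.657 to 1.73 and 2.96 to 14.7. Gtse1 rose at Day 5 in males (1.94 ± 0.52, adjusted p = 0.0315). In females its larger estimate missed the threshold (4.41 ± 0.80, adjusted p = 0.0562), although all 4 Day 5 females, at 8.34 to 14.3 CPM, were above all 4 controls. Ckap2, a spindle protein, passed in neither sex (4.54 ± 0.82 and adjusted p = 0.0562 in females, 1.25 ± 0.91 and adjusted p = 0.346 in males). Its females ranged over 0 to 0.27 CPM at Day 0 and 2.31 to 11.7 at Day 2, its males over 0.163 to 1.61 and 1.73 to 5.18. Inka2, an inhibitor of the kinase Pak4, measured 0.746, 0.99, 1.76 and 1.43 CPM in Day 0 females, 16.8, 25.9, 29.9 and 12.5 at Day 2, 23.5, 2.08, 21.1 and 26.1 at Day 3 and 25.6, 9.26, 21 and 18.2 at Day 5. In males it was 0.814, 0.60, 0 and 1.67 CPM at Day 0, 1.84, 11.4, 6.95 and 18.6 at Day 2, 10.3, 5.87, 9.65 and 7.19 at Day 3 and 9.9, 8.47, 12.1 and 3.51 at Day 5. Inka2 had no overlap with Day 0 in any treated group, and rose at Day 5 in females (3.91 ± 0.40, adjusted p = 0.00427) and males (3.56 ± 0.88, adjusted p = 0.0242).

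Because spindle genes also follow cell division, 12 proliferation genes were followed beside them. In each comparison of a sex and day with Day 0, 10 to 12 of them could be tested, Bub1 in males at Day 2 alone and Cenpf not in males at Day 5. Of those tested none was higher by edgeR or DESeq2, with 0 to 3 at an unadjusted p under 0.05 (15.7 to 40.5% of all genes). Aurkb was lower in males at Day 3 (13.1% of all genes were), where DESeq2 called 2 lower (13.9% of all genes), and DESeq2 called 1 lower in females at Day 2 (7.58%). Mki67, the source of the Ki-67 antigen, changed by -0.97 ± 0.51 (log2) in females at Day 2 (adjusted p = 0.258) and by 0.84 ± 0.69 in males (adjusted p = 0.446). The topoisomerase gene Top2a changed by -0.25 ± 0.86 (adjusted p = 0.877) and 0.71 ± 0.69 (adjusted p = 0.51). The summed level of the 12 genes ran from 12.5 to 15.2 CPM in Day 0 females and from 5.8 to 9.96 CPM at Day 2, and in males from 10.6 to 36.5 and from 11.9 to 70.1 CPM.

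Among the receptor genes Eda2r, Tnfrsf10b and Fas, the largest Day 5 estimates were those of Eda2r, the receptor of ectodysplasin A2. It was listed at 0.26, 0.357, 0 and 0.944 CPM in Day 0 females (0 to 35 reads) and measured 7.2, 26.9, 27.2 and 8.52 at Day 2, 31, 1.99, 25.3 and 25.5 at Day 3 and 19.2, 10.1, 6.86 and 9.95 at Day 5. In males Eda2r was 0.597, 0.35, 0 and 0.518 CPM at Day 0 (0 to 11 reads), 1.11, 5.7, 6.59 and 14.6 at Day 2, 11.4, 4.4, 7.94 and 6.38 at Day 3 and 9.57, 4.75, 19.98 and 1.68 at Day 5. All 24 treated mice exceeded their controls. The Day 5 rise was 4.80 ± 0.78 in females (adjusted p = 0.0376) and 4.71 ± 0.98 in males (adjusted p = 0.0146), the largest of the tested genes in males. The female call held in 2 of the 8 fits that left out 1 mouse, and the male call in 7, being lost without Day 5 mouse 3 and with a replicate block.

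The TRAIL receptor gene Tnfrsf10b ranged over 1.95 to 3.18 CPM at Day 0 and 8.19 to 17.6 at Day 2 in females, and over 1.9 to 4.74 and 3.63 to 13.7 in males. It rose at Day 5 in males (1.12 ± 0.34, adjusted p = 0.0459), though not without Day 5 mouse 1 or without the mitochondrial genes, and did not pass in females (1.78 ± 0.41, adjusted p = 0.116). Fas, the receptor of Fas ligand, overlapped Day 0 in all 4 comparisons of Day 2 and Day 3, and its Day 5 estimate was 0.77 ± 0.25 in females (adjusted p = 0.215) and 0.10 ± 0.36 in males (adjusted p = 0.863). The 3 receptor genes thus differed in the size of their estimates, which were not tested against each other.

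Inside the cell, Aen, a nuclease that acts in apoptosis, measured 11.2, 5.72, 3.43 and 10.9 CPM in Day 0 females, 62.5, 73.6, 82.6 and 45.5 at Day 2, 74, 18.2, 63.2 and 71.3 at Day 3 and 63.5, 33.3, 44.3 and 55.4 at Day 5. In males Aen was 18.7, 17.5, 4.6 and 15.2 CPM at Day 0, 21.2, 43.7, 37.2 and 61.7 at Day 2, 52.4, 36.1, 44.4 and 37.3 at Day 3 and 41.1, 16.6, 32.4 and 14 at Day 5. All treated females exceeded the controls, while 2 Day 5 males fell within them. Aen rose at Day 5 in females (2.64 ± 0.38, adjusted p = 0.0216) and did not pass in males (0.97 ± 0.46, adjusted p = 0.158). The apoptosome gene Apaf1 ranged over 2.6 to 5.15 CPM at Day 0, 6.25 to 13.6 at Day 2 and 6.11 to 9.2 at Day 5 in females, and passed in neither sex at Day 5 (1.05 ± 0.31, adjusted p = 0.192; 0.76 ± 0.29 in males, adjusted p = 0.0952).

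Pidd1, the scaffold of the complex that activates caspase-2, ranged over 2.16 to 3.88 CPM in females at Day 0, 5.23 to 15.7 at Day 2, 4.49 to 13 at Day 3 and 3.25 to 11.2 at Day 5, so that all Day 2 and Day 3 females were above the controls. In males the ranges were 3.4 to 4.88, 4.86 to 12.9, 4.52 to 7.05 and 2.9 to 6.46 CPM. Pidd1 passed no test. Perp, a membrane protein of apoptosis and desmosomes, and Ei24, an endoplasmic reticulum protein, were well expressed at Day 0, Perp at a median of 29.9 FPKM in females and 37.2 in males, Ei24 at 22.2 and 24.6. Neither passed a test. Perp ranged over 41 to 70.6 CPM in females at Day 0 and 58.9 to 147 at Day 2, but over 49.1 to 93.6 and 52.7 to 85.4 in males. The interaction of sex and day for Perp was -1.03 ± 0.40 at Day 2 and -1.08 ± 0.35 at Day 3 on the log2 scale and is given as a description, for the reason stated below with the sex comparisons.

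Phlda3, an inhibitor of the survival kinase Akt, measured 33.9, 41.2, 39.5 and 36.3 CPM in Day 0 females, 144, 123, 143 and 67.2 at Day 2, 119, 24.5, 106 and 134 at Day 3 and 146, 69.2, 132 and 88.2 at Day 5. In males it was 21.5, 24.2, 34.7 and 71.3 CPM at Day 0, 13.4, 59.1, 37.7 and 118 at Day 2, 59.8, 34.4, 51.1 and 39.9 at Day 3 and 68.6, 134, 146 and 71.3 at Day 5. The male controls were uneven, and mouse 4 of Day 0 was as high as the 2 lowest Day 5 males. Phlda3 rose against Day 0 at Day 5 in females (1.52 ± 0.25, adjusted p = 0.0395) and males (1.54 ± 0.42, adjusted p = 0.0338), and in males also from Day 3 to Day 5 (1.27 ± 0.29, adjusted p = 0.0112). The rise against Day 0 held in 2 of the 8 fits that left out 1 mouse in each sex, and that from Day 3 to Day 5 in all 8, but the latter was lost in 1 fit over all 8 groups.

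Trp53inp1, a stress protein that binds kinases of p53 and acts in autophagy, measured 14.6, 14.3, 18.2 and 27.2 CPM in Day 0 females, 45, 169, 168 and 72.1 at Day 2, 127, 29.2, 109 and 141 at Day 3 and 121, 55.5, 66.5 and 77.8 at Day 5. In males it was 29.7, 32.7, 25.4 and 29.7 CPM at Day 0, 39.2, 87.4, 78.6 and 71.3 at Day 2, 122, 73.7, 105 and 85 at Day 3 and 83.2, 32.7, 138 and 26.5 at Day 5. Male Day 5 mouse 3 was the highest male of all and mouse 4 was among the controls, and the male Day 5 change did not pass (1.32 ± 0.47, adjusted p = 0.0735). It rose at Day 5 in females (2.11 ± 0.30, adjusted p = 0.0207).

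Zmat3, a zinc-finger protein that binds RNA, measured 19.1, 18, 25.2 and 19 CPM in Day 0 females, 97.2, 92.2, 101 and 53.9 at Day 2, 88.6, 27.5, 78.8 and 79.2 at Day 3 and 60.5, 37.7, 50.4 and 80.1 at Day 5. Male Zmat3 levels were 24.8, 22.7, 22.5 and 28.9 CPM at Day 0, 32.6, 51.3, 53.7 and 89.6 at Day 2, 57.5, 49.7, 58.4 and 55.1 at Day 3 and 48.3, 20.6, 29.3 and 14.3 at Day 5. Mice 2 and 4 of the Day 5 males were below every Day 0 male. Zmat3 was the 1 member that fell from Day 3 to Day 5 in males (-0.87 ± 0.30, adjusted p = 0.0467), while at Day 5 it rose against Day 0 in females (1.49 ± 0.25, adjusted p = 0.0395). The male fall was lost in 7 of the 8 fits that left out 1 mouse and held only without male Day 5 mouse 1.

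Among the genes of repair and metabolism, Ephx1, the microsomal epoxide hydrolase of detoxification, measured 60.3, 70.5, 26 and 54.9 CPM in Day 0 females, 703, 379.7, 436 and 225 at Day 2, 352, 68.9, 337 and 402 at Day 3 and 361, 190.2, 422 and 383 at Day 5. In males Ephx1 was 38.4, 44.5, 25.7 and 47.1 CPM at Day 0, 66.3, 174, 119 and 495 at Day 2, 202, 91.4, 154 and 101 at Day 3 and 261, 211, 250.3 and 157 at Day 5. At Day 5 Ephx1 stood above Ccng1 as the member with the highest level per length, at a median of 186 FPKM in females and 123 in males. It rose against Day 0 in males with the smallest adjusted p of the 34 in that sex (2.56 ± 0.26, adjusted p = 0.00371) and in females (2.67 ± 0.36, adjusted p = 0.0168). Female Day 3 mouse 2, at 68.9 CPM, was the only treated mouse of either sex within its controls.

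Ddias, named for suppressing apoptosis after DNA damage, was near 0 at Day 0 (0 to 0.459 CPM and 0 to 17 reads in females, 0.173 to 0.60 CPM and 3 to 12 reads in males). It reached 3.26 to 13.2 CPM in females and 1.23 to 4.5 CPM in males at Day 2. Ddias rose at Day 5 in females (4.68 ± 0.79, adjusted p = 0.0435), where the 4 mice measured 6.66, 3.97, 5.63 and 3.09 CPM. Rrm2b, the p53-induced subunit of ribonucleotide reductase, ranged over 16.4 to 22.5 CPM at Day 0 and 21 to 25.7 at Day 3 in males, over 9.57 to 18.3 and 17 to 21.2 in females, and passed no test in either sex.

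Sesn1, a sestrin that restrains mTORC1, showed little movement until Day 3. Its females measured 16.6, 17.6, 15.3 and 18 CPM at Day 0, 15.2, 19.4, 19.2 and 15.8 at Day 2, 13.8, 18.5, 18.3 and 18.3 at Day 3 and 22.4, 23, 18.6 and 19.4 at Day 5. Its males measured 14.5, 12.9, 12.3 and 16 CPM at Day 0, 16.2, 16, 15.4 and 17.7 at Day 2, 17, 14.4, 15.4 and 16.5 at Day 3 and 20.2, 21.4, 31.9 and 22.5 at Day 5, and all 4 Day 5 males were above all other males. Sesn1 rose in males at Day 5 against Day 0 (0.85 ± 0.20, adjusted p = 0.022) and against Day 3 (0.69 ± 0.16, adjusted p = 0.0124), and the second change held with each mouse left out, whereas the first was lost in 5 of 8 such fits. In females the change was 0.31 ± 0.19 (adjusted p = 0.451).

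Trp53i11, a p53-induced gene of the membrane, had a late course as well. In males it measured 10.9, 11.4, 9.45 and 14.8 CPM at Day 0, 17.9, 9.71, 9.0 and 22 at Day 2, 11.8, 10.7, 11.2 and 9.99 at Day 3 and 14.8, 39.2, 33.8 and 49.7 at Day 5. In females it was 13.8, 16, 14.1 and 13.8 CPM at Day 0, 17.3, 13, 10.9 and 10.1 at Day 2, 15.3, 12.8, 18.1 and 17.1 at Day 3 and 19.3, 29.7, 15.3 and 12 at Day 5. The 4 highest levels of the series were in male Day 5 mice 2, 3 and 4 and female Day 5 mouse 2, which are the 4 libraries with 77.9 to 79.8% mitochondrial reads, whereas male Day 5 mouse 1 (42.5%) stood at 14.8 CPM. The part of that share in the result was not tested. Both male calls held in the fit without mitochondrial genes, which keeps the same libraries and so does not test it. Trp53i11 rose in males from Day 0 to Day 5 (1.63 ± 0.34, adjusted p = 0.0148) and from Day 3 to Day 5 (1.74 ± 0.32, adjusted p = 0.00507), the first change being lost without male Day 5 mouse 2, but did not pass in females (0.41 ± 0.29, adjusted p = 0.505).

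**Figure D5:**
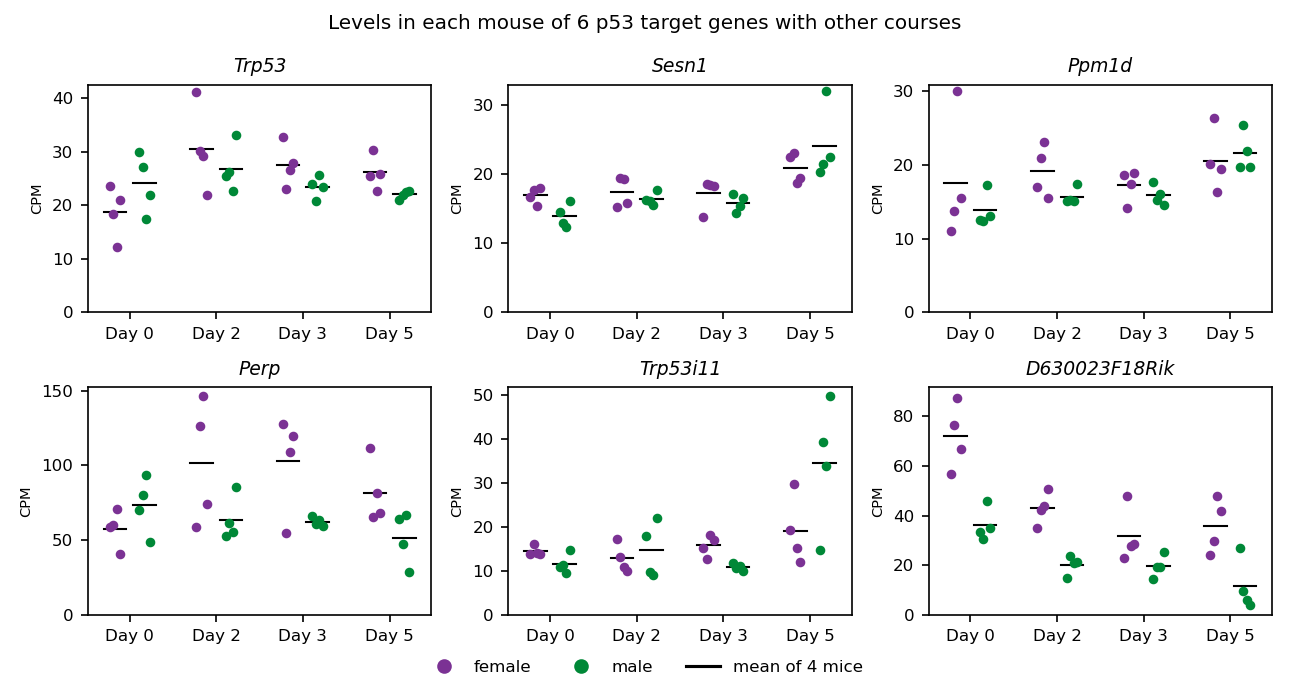
Levels of 6 members that did not follow the common course, in each mouse (points, CPM, linear axis from 0) by day, females in purple and males in green, with the mean of 4 mice as a black bar. Sesn1, Ppm1d and Trp53i11 were highest in males at Day 5, and D630023F18Rik was lower after Day 0 in both sexes, from a highest control of 87.6 CPM in females.

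Of the remaining members, Sulf2, an extracellular sulfatase that edits heparan sulfate, measured 16.1, 18.1, 19 and 21.9 CPM in Day 0 females, 105, 84.5, 93.9 and 55.5 at Day 2, 108, 25.6, 92.5 and 98.5 at Day 3 and 84.3, 41.6, 59 and 65.5 at Day 5. In males Sulf2 was 17.7, 16, 11.6 and 31.6 CPM at Day 0, 21.3, 46.3, 41.7 and 96.9 at Day 2, 60.7, 37.4, 48 and 39.2 at Day 3 and 49.7, 60.01, 96.2 and 43 at Day 5. Only male Day 2 mouse 1 overlapped its controls. Sulf2 rose at Day 5 in females (1.74 ± 0.23, adjusted p = 0.0168) and males (1.77 ± 0.35, adjusted p = 0.0134). Sema7a, a membrane-anchored semaphorin, measured 4.18, 5.0, 4.63 and 7.94 CPM in Day 0 males, 11.4, 13.8, 9.96 and 23.9 at Day 2, 19.9, 12.5, 14.3 and 11.5 at Day 3 and 16.4, 14.6, 34.3 and 24.8 at Day 5, with no overlap. Its females were 7.17, 5.06, 7.99 and 6.42 CPM at Day 0, 26.3, 15.3, 15.4 and 7.76 at Day 2, 17.6, 7.95, 16.4 and 17.1 at Day 3 and 16.1, 9.14, 17.6 and 19.1 at Day 5. Sema7a rose at Day 5 in males (2.12 ± 0.33, adjusted p = 0.00781) and did not pass in females (1.22 ± 0.28, adjusted p = 0.116).

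Kank3, an ankyrin-repeat protein of the cytoskeleton, measured 19.97, 16, 9.01 and 18.2 CPM in Day 0 males, 31.1, 37.8, 28.3 and 47.6 at Day 2, 42, 27.3, 35.4 and 26.7 at Day 3 and 29.8, 30.9, 44 and 46 at Day 5, and rose at Day 5 (1.33 ± 0.27, adjusted p = 0.0141). In females it was 26.1, 26, 17.2 and 18.9 CPM at Day 0, 50.02, 40.3, 36 and 24.2 at Day 2, 32.8, 22.6, 29.8 and 30.3 at Day 3 and 33.2, 40.2, 35 and 34.1 at Day 5 and did not pass at Day 5 (0.69 ± 0.21, adjusted p = 0.197). The males were above their controls on all 3 days, and the females at Day 5 alone, since Day 2 mouse 4 and Day 3 mouse 2 fell within the controls.

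Mab21l3 measured 0.876, 0.44, 0.686 and 1.13 CPM in Day 0 females, 10.8, 13.7, 15.9 and 5.96 at Day 2, 15.7, 4.2, 11 and 13.5 at Day 3 and 13.7, 3.73, 9.13 and 8.75 at Day 5. Its males were 1.47, 1.8, 0.328 and 1.38 CPM at Day 0, 1.73, 3.24, 2.49 and 6.36 at Day 2, 4.25, 2.74, 3.72 and 2.22 at Day 3 and 8.56, 2.67, 4.84 and 2.39 at Day 5. It rose at Day 5 in females (3.48 ± 0.48, adjusted p = 0.0168) and males (1.97 ± 0.60, adjusted p = 0.0451). The male call did not hold without Day 5 mouse 1. 1700007K13Rik measured 0.584, 0.77, 0.637 and 0.567 CPM in Day 0 females, 10.6, 20.2, 25.9 and 5.52 at Day 2, 14.1, 0.938, 11.5 and 15.1 at Day 3 and 14.1, 4.45, 13.9 and 8.49 at Day 5, and rose at Day 5 (3.99 ± 0.43, adjusted p = 0.00427) with each mouse left out in turn. Its males were 0.326, 0.50, 0 and 0.23 CPM at Day 0, 0.878, 5.79, 2.85 and 13.8 at Day 2, 5.71, 2.59, 3.42 and 2.64 at Day 3 and 6.15, 1.19, 5.64 and 0.421 at Day 5. Every treated mouse but male Day 5 mouse 4 was above the controls of its sex.

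D630023F18Rik was the 1 member that ran below its controls throughout. It measured 56.6, 76.5, 87.6 and 67 CPM in Day 0 females, 34.8, 42.2, 43.8 and 50.9 at Day 2, 23, 47.9, 27.6 and 28.4 at Day 3 and 24.2, 29.6, 48.1 and 41.9 at Day 5. In males it was 33.4, 30.5, 45.7 and 35.1 CPM at Day 0, 14.7, 23.7, 20.8 and 21.4 at Day 2, 14.5, 19.2, 19.4 and 25.5 at Day 3 and 26.8, 9.8, 5.96 and 4.07 at Day 5. Each treated mouse of both sexes lay below all Day 0 mice of its sex. The Day 5 change was -1.0 ± 0.25 in females (adjusted p = 0.14) and -1.55 ± 0.50 in males (adjusted p = 0.0546), and passed in neither. It was called lower in both sexes by DESeq2, in females without Day 0 mouse 4 and in males without Day 5 mouse 1.

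From Day 2 to Day 3 no member changed in either sex, and no gene at all did by edgeR (0.0% of 16232 genes in males and of 16974 in females). None of the 34 had an unadjusted p under 0.05 there (8.69% of all genes did in males and 3.99% in females). None was called by DESeq2 (0.319 and 0.371% of all genes). From Day 3 to Day 5 no member changed in females, where again no gene was called (0.0%). There 1 member had an unadjusted p under 0.05 (11.7% of all genes) and DESeq2 called none (0.208% of all genes). In males Phlda3, Ppm1d, Sesn1 and Trp53i11 rose (20.9% of all genes did) and Zmat3 fell (17.1%). Without male Day 5 mouse 1, 5 members rose and 6 fell, namely Aen, Ccng1, D630023F18Rik, Plk2, Rrm2b and Zmat3 (55.2% of all genes were called in either direction). Male Day 5 also differed from male Day 3 in markers of other tissues. Summed over 5 genes each, erythroid markers measured 204 to 5501 CPM at Day 5 beside 0.811 to 2.25 at Day 3 and 434 to 2150 at Day 0, so that Day 3 was the low group, and adipocyte markers 603 to 3212 beside 174 to 232, and all 5 genes of each set rose. Of 10 leukocyte markers, 6 of 9 tested rose, and the sums were 82.2 to 364 beside 70.8 to 86.0 CPM. Their part in the late courses of Trp53i11, Sesn1, Ppm1d and Phlda3 was not tested.

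The sexes were compared directly at each day. The mean of the males was below that of the females in 13 of the 34 genes at Day 0, in 32 at Day 2, in 32 at Day 3 and in 28 at Day 5. The same count was not made over all genes. The median log2 difference over the genes tested was 0.21, -0.67, -0.50 and -0.55 at the 4 days, beside -0.02 to 0.00 over all genes. The Day 2 and Day 3 libraries also entered the choice of the list. Single genes seldom passed. At Day 0 none of 31 tested genes differed (0.237% of all genes were higher in males and 0.212% lower). There 4 had an unadjusted p under 0.05 (8.04% of all genes) and DESeq2 called 1 (2.18% of all genes in either direction). At Day 2 only D630023F18Rik was lower in males (-1.11 ± 0.18, adjusted p = 0.0137, 0.578% of all genes lower and 0.891% higher). The call moved with single mice, since without female Day 2 mouse 3 or male Day 2 mouse 3 it did not pass (0.567 and 0.67% of all genes called in either direction). Without female Day 2 mouse 4 and male Day 2 mouse 4, 2 and 3 members passed (1.06 and 3.35%), with D630023F18Rik among them. The Day 0 estimate of D630023F18Rik was -1.01 ± 0.21 (adjusted p = 0.0974).

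At Day 3 Mab21l3 (-1.81 ± 0.40, adjusted p = 0.0167) and Trp53i11 (-0.56 ± 0.11, adjusted p = 0.00895) were lower in males (10.7% of all genes were). The number of further calls depended on 1 library. Without female Day 3 mouse 2, 23 of the 34 genes were lower in males, among them Cdkn1a, Mdm2, Ccng1, Eda2r and Aen, and none was higher, while without male Day 3 mouse 2 or 4 only Trp53i11 was. In the first of these fits 34.6% of all genes were called in either direction, and without male Day 3 mouse 2 or 4 it was 11.1 and 12.5%. The difference between the sexes in the change from Day 0, the interaction of sex and day, is built from the changes that chose the list, and choosing genes changed in both sexes works against finding one. For the 34 it is a description with no test, and nothing is read from it. The interaction estimates were -3.27 ± 1.11 at Day 2 and -3.68 ± 1.12 at Day 3 for Ckap2 and -2.41 ± 0.71 and -2.44 ± 0.68 for Mab21l3, the negative sign standing for a smaller rise in males. Over all genes 0.0% were called in each direction at Day 2 and 0.00568% at Day 3. At Day 2 adrenal cortex markers summed to 10.06 to 487.3 CPM in males and 2.865 to 4.263 CPM in females. Kidney markers summed to 11680 to 22940 and 7294 to 13260 CPM there. The sexes also differed in markers of tissue around the kidney at Day 3. Adipocyte markers were lower in males in 4 of 5 genes, with sums of 174 to 232 CPM beside 315 to 573 in females. Adrenal cortex markers, which come from a neighbouring gland, summed to 25.2 to 2046 CPM in Day 3 females and 3.76 to 61.9 CPM in Day 3 males, and the kidney marker sum was 6790 to 15190 CPM in Day 3 females and 14970 to 23660 CPM in Day 3 males, where 3 of the 10 genes were higher and 3 lower. The part of these sets in the sex difference was not tested.

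Beyond the 34, a list of 54 other p53 targets was set up from general knowledge of the pathway and tested at Day 2 and Day 3. It too was drawn up with earlier results of these data known, so that its counts are not independent evidence. In females 3 of 52 tested rose at Day 2, Bbc3, Gdf15 and Sesn2 (0.774% of all genes did), and 2 of 53 at Day 3, Gdf15 and Slc12a4 (1.26%), and none fell (1.16 and 4.28% of all genes did). In males none of 52 changed at Day 2 (1.81% of all genes rose and 1.35% fell). There 19 had an unadjusted p under 0.05 (29% of all genes) and DESeq2 called 13 (7.53% of all genes higher and 8.74% lower by that tool). At Day 3, 9 of 51 rose and 3 fell in males (11.4% of all genes rose and 13.1% fell). These counts moved with single mice too. Without female Day 0 mouse 4, the control high in Plk3 and Btg2, 16 passed at Day 2 and 21 at Day 3 in females, but so did 28.3 and 39.1% of all genes in either direction. The female count at Day 2 was 1 without Day 0 mouse 1 or 2 or Day 2 mouse 1, 2 or 3 (0.125 to 0.266% of all genes). At Day 3 it was 0 without Day 0 mouse 1, 2 or 3 or Day 3 mouse 1, 3 or 4, with at most 1 of all genes called, and 4 without Day 3 mouse 2 (3.15%). In males 7 passed at Day 2 without Day 0 mouse 3 or 4 (14% of all genes in each of these fits). At Day 3 the male count was 19 and 22 without Day 0 mouse 3 or 4 (38.6 and 34.7%), and 4, 4, 3 and 5 without Day 3 mouse 1, 2, 3 or 4 (6.56, 6.38, 4.18 and 7.98%). The median log2 fold change of this list was 0.40 and 0.33 in females and 0.11 and 0.09 in males at Day 2 and Day 3.

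Gdf15, a secreted stress cytokine, passed most often. It measured 9.83, 14.8, 8.52 and 15.5 CPM in Day 0 females, 69.1, 78.5, 119.6 and 48 at Day 2 and 147, 11.2, 81.2 and 154 at Day 3, and rose at both days (2.69 ± 0.33, adjusted p = 0.00576; 3.0 ± 0.67, adjusted p = 0.0479). In males it went from 8.14, 19.8, 16.8 and 14.6 CPM to 18, 48.6, 35.6 and 88.2 at Day 2, which missed the threshold (1.69 ± 0.46, adjusted p = 0.0663), and 78.5, 49.3, 52.2 and 34.6 at Day 3, which passed (1.85 ± 0.32, adjusted p = 0.00956). Female Day 3 mouse 2, at 11.2 CPM, was within the controls here too. Slc12a4, a potassium-chloride cotransporter, rose at Day 3 in females (0.87 ± 0.21, adjusted p = 0.0495) and males (0.82 ± 0.21, adjusted p = 0.0261).

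The classical apoptosis effectors were followed singly and were not tested against each other. Bax, the pore-forming effector of the mitochondrial pathway, measured 63.9, 98.7, 85.4 and 38.1 CPM in Day 0 females and 82.4, 68.3, 80.4 and 57.5 at Day 2, and its log2 fold change was 0.01 ± 0.29 (adjusted p = 0.982), with -0.37 ± 0.34 in males (adjusted p = 0.493). Bbc3 (Puma), an activator of Bax, rose at Day 2 in females (2.37 ± 0.48, adjusted p = 0.0423) from 4.51, 6.57, 1.08 and 3.56 to 20.7, 23.5, 27 and 10.4 CPM. In males Bbc3 did not pass (0.48 ± 0.51, adjusted p = 0.558), and the interaction of sex and Day 2 was -1.91 ± 0.74 (adjusted p = 1.0). Pmaip1 (Noxa) rose in males at Day 3 (0.84 ± 0.19, adjusted p = 0.0191) and did not pass in females (0.90 ± 0.50, adjusted p = 0.246). In males Fdxr, Pank1 and Triap1 fell at Day 3, with log2 fold changes of -0.75 ± 0.17 (adjusted p = 0.0186), -0.73 ± 0.23 (adjusted p = 0.0479) and -0.64 ± 0.12 (adjusted p = 0.0126).

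Of the genes that act upstream of p53, 12 were high enough to test. None changed in females at Day 2 or Day 3, with 0 and 2 at an unadjusted p under 0.05 (25.3 and 30.7% of all genes) and none by DESeq2 (11.1 and 17.5%). In males none changed at Day 2, with 4 at an unadjusted p under 0.05 (29% of all genes) and 2 by DESeq2 (16.3%). At Day 3 in males 4 changed. Mdm4, the partner of Mdm2 (1.36 ± 0.23, adjusted p = 0.00914), the damage kinase gene Atr (0.96 ± 0.13, adjusted p = 0.00563) and Trp53bp1 (0.88 ± 0.17, adjusted p = 0.0127) rose (11.4% of all genes did). The checkpoint kinase gene Chek1 fell (-1.79 ± 0.49, adjusted p = 0.0338), as did 13.1% of all genes. These calls were not examined with single mice left out. The kinase gene Atm did not pass at Day 3 in males (1.90 ± 0.85, adjusted p = 0.13) or females (0.80 ± 0.73, adjusted p = 0.467), and Trp73, a relative of Trp53, was too low to test.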

How the data were processed

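Kidney RNA of 32 mice, 4 per sex and day, was sequenced by the authors as paired reads of 150 bases. The authors deposited a table of raw counts per gene and of FPKM values (read fragments scaled by gene length and library size) made from them, and the methods give GRCm38 as the genome. The submitters' processing notes name HTSeq, DESeq2 and GRCm39 (mm39), with no versions. Gene coordinates in the table are those of GRCm38 and are given as such. The columns of FPKM were used only to order genes by level within a group.

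Each comparison was fitted on the counts of its own groups with edgeR 4.0.16 in R 4.3.3 (TMM, filterByExpr, robust quasi-likelihood test, two-sided), with Benjamini-Hochberg adjustment over all genes tested and a threshold of 0.05, which is what "passed", "rose" and "fell" refer to. Standard errors come from the same fits. CPM values were scaled over the 18220 genes that pass the filter over 8 groups. The interaction of sex and day was fitted over the 4 groups concerned. The steps were tested on simulated counts. The members and all gene lists were chosen with earlier results of these data known. Members were described mouse by mouse, up to 22 of them, where they passed a test or lay in the study's modules, and otherwise by range. Other targets were named where they passed in at least 2 of 4 comparisons, with Bax, Bbc3 and Pmaip1, and Mdm4, Atm, Trp73, Mki67 and Top2a were named from the other lists. Sesn2, Fdxr, Pank1, Triap1, Atr, Trp53bp1, Chek1 and Aurkb were named after their values were seen. Alternatives were DESeq2 1.42.0, its size factors in edgeR, no filter, 1 fit over all 8 groups, a replicate block, a second limit of 1.5 on the log2 fold change, leaving out genes of the mitochondrial genome, and leaving out each mouse. Total counts of 16502107 to 35961325 per library set the precision of low genes, and up to 79.8% of a Day 5 total was mitochondrial. Replicate numbers mark different mice and no batch was given in the labels, so that the mice were not treated as paired. Promoters were read from RefSeq (GRCm38.p6).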

Additional observations from a re-analysis of the deposited data

Results flagged for a closer look

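A gene's highest or lowest mouse was singled out where its gap to the nearest mouse of the group, divided by the range of the group, exceeded Dixon's critical value for 4 mice. This happened in 19 of 272 combinations of gene and group, and chance alone gives about 1 in 20. Female Day 3 mouse 2 was the low mouse in 5 of them, at 153 CPM for Ccng1, 27.5 for Zmat3, 17.0 for Rrm2b, 112 for Ei24 and 7.95 for Sema7a. In the same group mouse 1 was low for Sesn1, at 13.8 CPM.

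Among the controls, female Day 0 mouse 4 was high for Plk3 (67.9 CPM) and Btg2 (76.3 CPM), mouse 3 was high for Zmat3 (25.2 CPM) and had no read of Psrc1 (0 CPM), and mouse 2 was high for Trp53i11 (16.0 CPM). Male Day 0 mouse 3 was low for Mdm2 (24.6 CPM) and high for Ppm1d (17.3 CPM).

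Of the treated mice, male Day 2 mouse 1 was low for Ddias (1.23 CPM), male Day 2 mouse 4 high for Ppm1d (17.4 CPM) and male Day 5 mouse 3 high for Apaf1 (9.51 CPM). Female Day 2 mouse 1 was low for Rrm2b (8.43 CPM), female Day 5 mouse 2 low for Ei24 (118 CPM) and female Day 5 mouse 1 high for Ckap2 (6.20 CPM).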

How the results depend on the processing

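Of 43 calls of a gene in a comparison, 446 of 602 values under the alternatives passed with the same sign, 156 no longer passed and 0 had the opposite sign. With a replicate block, which joins mice that share only a number, 11 members passed at Day 5 against Day 0 in males in place of 19 (13% of all genes), without Mdm2, Plk3, Sesn1, Eda2r, Gtse1, Inka2, Tnfrsf10b, Ppm1d and Mab21l3 and with D630023F18Rik as lower. In females 11 passed in place of 16 (0.221%), without Zmat3, Phlda3, Psrc1, Ddias and Ephx1, and 1 passed between the sexes at Day 0 (1.31%). The same block left 1 other target at Day 2 (0.314% of all genes) and 0 at Day 3 (0%) in females, and 0 at Day 3 in males (0.566%). No pair of groups had every same-number correlation above 0.1, and in none did every mouse correlate best with its own number. Males and females at Day 0 came nearest, with correlations of 0.272, -0.074, 0.444 and 0.481 and the own number best in 3 of 4. In males from Day 3 to Day 5, 3 members passed in 1 fit over all 8 groups (25.7% of all genes) and 3 with no filter (18.5%). With the second limit of 1.5, 1 passed (1000 genes higher and 509 lower of 15654).

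Between the sexes at Day 2, 0 members passed in the fit over 8 groups (0.763% of all genes), 2 by DESeq2 (4.09%) and 0 with the second limit. At Day 3 these were 0 (0.988% of all genes), 5 (22%) and 1 (149 genes higher and 173 lower of 16673), and with no filter 1 (9.89%). At Day 5 they were 2 in the fit over 8 groups (9.69%) and 2 by DESeq2 (5.95%), and at Day 0 DESeq2 called 1 (2.18%). Of the other p53 targets, the fit over 8 groups and DESeq2 called 15 and 10 in females at Day 2 (21.8 and 11.1% of all genes in either direction), 12 and 12 at Day 3 (23.4 and 17.5%), and 8 and 13 in males at Day 2 (12.9 and 16.3%). DESeq2 called 20 in males at Day 3 (27.4%), where the second limit left 3 (298 genes higher and 293 lower of 15908). In females the count was 7 at Day 2 with no filter (3.41%). At Day 3 it was 0 with DESeq2's size factors (2.53%) and 1 with the second limit (87 genes higher and 337 lower of 17065). The cause of these moves was not tested.

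Leaving out 1 mouse at a time gave, counting both directions, 4 to 24 members at Day 5 against Day 0 in females, 8 to 18 in males, 4 to 11 from Day 3 to Day 5 in males, and 0 to 3, 1 to 23 and 0 to 5 between the sexes at Day 2, Day 3 and Day 5. It gave 15 to 29 members without overlap at Day 3 in females. For other targets it gave 1 to 16 and 0 to 21 in females at Day 2 and Day 3, and 0 to 7 and 3 to 22 in males. Read counts were low in some controls, as in Psrc1 with at most 24 reads in a Day 0 library. They were also low in Day 5 libraries with many mitochondrial reads. Male Day 5 mouse 4 (79.7% mitochondrial) held 1 read of Ckap2, 3 of 1700007K13Rik and 6 of Ddias.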

Other observations

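The other p53 targets were also measured at Day 5. In females 1 of 51 tested rose against Day 0, Gdf15, with a log2 fold change of 3.18 ± 0.35 in edgeR's test (adjusted p = 0.00427), and none fell (0.185% of all genes rose and 0.0738% fell), while DESeq2 called 4 higher, against 1.57% of all genes. In males 9 of 51 rose and 9 fell, while 8.98% of all genes rose and 10.2% fell. Their median log2 fold change was 0.37 in females and 0.15 in males.

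The proliferation genes were also compared between the sexes at Day 2. All 11 that were tested had a higher estimate in males than in females, with a median log2 difference of 1.73 and 11 at an unadjusted p under 0.05, as were 15% of all genes in either direction. None passed after adjustment by edgeR (0.891% of all genes were higher in males), and DESeq2 called 3 (2.5%). The male Day 2 sums ran from 11.9 to 70.1 CPM and the female ones from 5.8 to 9.96 CPM.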
